A study of Mus musculus with 10 samples.

Results

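The genes Nlrp4c, Nlrp4e, Nlrp4f, Nlrp5, Nlrp14, Ooep, Tle6, Padi6, Zp3 and Dppa3, best known from the oocyte and the early embryo, were followed in RNA-Seq libraries of murine embryonic stem cells (mESCs). They were chosen by name, with earlier results of these data known, and are 10 of the 20325 genes in the table. Their shares set beside those of all genes are therefore descriptions of this list only. Of the 10, 8 were among the 13201 genes with enough counts to be tested. Nlrp4e and Nlrp5 were not, since they did not reach 1 CPM (expected counts scaled by effective library size) in 2 libraries.

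The libraries came from 5 mESC lines with 2 replicates each, grown without feeders in 2i and LIF medium with CHIR99021 at 3 μM and PD0325901 at 1 μM. Both Daxx lines were of strain 129/SvEv: Daxx-/- cells, which lack the H3.3 chaperone DAXX, and the same cells given a WT Daxx transgene (Daxx-/-;WT). The other lines carried a 129 and C57BL/6J background: H3.3 KO cells, which have neither functional H3.3 gene, and H3.3 KO cells given either the wild-type histone (H3.3 KO;WT) or the double mutant spelled L126A-L130A in the labels (H3.3 KO;L126A-L130A). For the second substituted residue the study's text names isoleucine, not leucine, and it describes the mutant as able to bind DAXX but not to be stably built into nucleosomes. Transgenes were epitope-tagged, were driven by a constitutive EF1 promoter in lentiviral vectors and were kept under puromycin, and the series holds no line that was never mutated. The lines lacking the transgene therefore served as controls. Because strain differs between the Daxx and the H3.3 lines, levels across these families are given side by side with no test. The study's text calls the replicates biological, while nothing in the labels says whether they were separate cultures. The p-values therefore measure only the spread between these libraries.

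Oocytes store mRNAs and proteins that carry the embryo through its first divisions. Nlrp5 (also called Mater), Ooep (Floped), Tle6 and Padi6 encode proteins of the subcortical maternal complex and the cytoplasmic lattices beneath the egg surface, and loss of these factors in the mother halts the embryo early. The Nlrp4 genes and Nlrp14 belong to the NLRP family, many rodent members of which are read mainly in oocytes. Zp3 encodes a glycoprotein of the zona pellucida, the coat to which sperm bind. Dppa3 (Stella) encodes a protein that protects the maternal genome from loss of DNA methylation after fertilization and is also expressed in primordial germ cells and in naive mESCs. Genes of this kind are commonly silenced in somatic cells by CpG methylation or repressive histone marks.

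Totals per library were between 15463625 and 21396585 expected counts, and replicates of every line differed by more than counting noise, most in Daxx-/- cells and least in H3.3 KO;WT cells (chi-square per gene 73.3 and 10.9). Daxx itself had 72.8 to 82.5 CPM in Daxx-/- cells and 206 CPM in both rescued libraries, and gene totals do not show which exons the counts come from. H3f3a had 381 to 494 CPM in the Daxx lines and 2.84 to 10.9 CPM in the H3.3 lines. The second H3.3 gene, H3f3b, had 509 to 720 CPM in H3.3 KO cells, which carry no transgene, the highest of the 5 lines, with 139 to 204 CPM in H3.3 KO;WT, 324 to 386 CPM in the mutant line, 313 to 380 CPM in Daxx-/- and 84.3 to 116 CPM in Daxx-/-;WT cells. Its gene totals thus do not show the KO named in the labels, while those of H3f3a do. Neither gene had a higher mean in the lines given an H3.3 transgene than in H3.3 KO cells, so these totals do not show the transgenes either. All 8 pluripotency markers examined were at or above 1 CPM in every library. Of 11 markers of the growing oocyte, none passed the filter, and together they had 0.472 to 2.27 CPM per library with Oosp1 at 0 in every library. The pluripotent label of the cells therefore stands, and defining oocyte markers were at or near 0.

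In GENCODE annotation of GRCm38, 4 of the members lie on chromosome 7: Nlrp4c at 6045161 to 6105150, Nlrp4e at 23301192 to 23362277, Nlrp5 at 23385889 to 23441922 and Nlrp14 at 107166990 to 107198102, all on the plus strand. Nlrp4e and Nlrp5 are neighbours, 23611 bases apart, whereas Nlrp4f is on the minus strand of chromosome 13 at 65177111 to 65205977. The others are single loci: Ooep on chromosome 9 (78376109 to 78378725, minus), Tle6 on chromosome 10 (81590904 to 81601073, minus), Padi6 on chromosome 4 (140727355 to 140742643, minus), Zp3 on chromosome 5 (135980099 to 135988624, plus) and Dppa3 on chromosome 6 (122626410 to 122630272, plus). All 10 are annotated as protein-coding, and the values below are totals over a gene's transcripts. The table carries no positions of its own.

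RefSeq promoter windows on GRCm38.p6 were given for 8 of the 10 members, but not for Nlrp14 or Dppa3. The 200 bases before the RefSeq start of the 3 Nlrp4 members are shown because these paralogs are close relatives whose counts moved differently. CpG dinucleotides, the sites of DNA methylation, are in capitals. The windows are chr7:6044961-6045160 (plus strand) for Nlrp4c, chr7:23300992-23301191 (plus) for Nlrp4e and chr13:65205717-65205916 (minus) for Nlrp4f. Each lies outside annotated exons. Those of Nlrp4c and Nlrp4e end just before the GENCODE gene start. That of Nlrp4f lies inside the GENCODE gene, whose start on the minus strand is at 65205977. Its CpG and identity values are therefore not like for like with those of Nlrp4c and Nlrp4e.
Nlrp4c: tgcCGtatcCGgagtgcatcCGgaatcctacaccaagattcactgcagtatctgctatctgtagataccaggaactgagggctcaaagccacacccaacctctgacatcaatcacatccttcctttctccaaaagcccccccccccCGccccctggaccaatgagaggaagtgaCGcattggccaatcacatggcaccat
Nlrp4e: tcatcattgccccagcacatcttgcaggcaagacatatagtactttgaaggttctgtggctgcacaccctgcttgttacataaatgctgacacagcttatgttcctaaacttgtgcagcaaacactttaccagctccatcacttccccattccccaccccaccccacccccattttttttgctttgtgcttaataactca
Nlrp4f: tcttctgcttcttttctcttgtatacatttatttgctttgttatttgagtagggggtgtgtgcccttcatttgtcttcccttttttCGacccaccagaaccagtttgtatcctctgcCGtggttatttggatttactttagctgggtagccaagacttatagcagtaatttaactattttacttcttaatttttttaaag
Nlrp4c holds 5 CpG in this window, the median over 32851 promoter windows, and Nlrp4f holds 2, while Nlrp4e holds 0. Aligned end to end with gaps, the windows shared 52.1% of positions between Nlrp4c and Nlrp4e, 48.0% between Nlrp4e and Nlrp4f and 42.0% between Nlrp4c and Nlrp4f. No level for unrelated windows was computed, so these shares do not show that the windows are related. Short motifs were searched on both strands: the core E-box CACGTG (in 5.26% of all windows), the E2F-like GCGGGAA (3.28%), the second E-box form CAGGTG (13.9%), the homeobox core TAATTG (5.63%) and the TATA box TATAAA (9.96%). None of them occurs in the windows of these 3 genes. Among the other members the core E-box was found at 119 and 183 bases before the start of Tle6 and 181 bases before that of Zp3. Tle6 also had a window with no motif. In separate windows of Nlrp5, the TATA box lay 134 and 56 bases and the E2F-like motif 174 bases before the RefSeq start. The window with the TATA box, chr7:23403902-23404101, lies inside the GENCODE gene, and both matches are on the strand opposite to it. Only the window with the E2F-like motif ends just before the GENCODE gene start. The homeobox core lay 195 bases before the RefSeq start of Ooep, in a window with 137 of its 200 bases in annotated exons. The second E-box form lay 78 bases before that of Padi6 and 55 bases before that of Zp3. Such matches describe letters only and do not show that a factor was bound.

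The 10 genes covered a wide range of expression. Divided by the length of the longest annotated transcript, median levels over the 10 libraries were 48.4 CPM per kb for Ooep and 44.2 for Dppa3. Tle6 (4.18), Zp3 (3.61) and Nlrp4f (3.55) formed a middle group on the same scale, followed by Nlrp4c (1.04) and Nlrp14 (0.713). Padi6 (0.345), Nlrp5 (0.0625) and Nlrp4e (0.0598) were barely read. Thus within the subcortical maternal complex Ooep was abundant while its partner Nlrp5 was close to the limit of detection, at 1.05 to 10.5 expected counts per library.

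The members also differed in how much they varied between lines. The ratio of the highest to the lowest line mean was 47.0 for Nlrp4c, 19.8 for Nlrp14 and 12.1 for Dppa3, against 1.82 for Ooep and 1.91 for Tle6. The line with the highest mean was Daxx-/- for Nlrp4c, Nlrp4e, Nlrp4f, Nlrp14 and Dppa3, and 1 of the H3.3 lines for Ooep, Tle6, Padi6, Zp3 and Nlrp5. Since the libraries are bulk samples, fewer cells that read a gene and less RNA per cell cannot be told apart in any of these values.

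**Figure D1:**
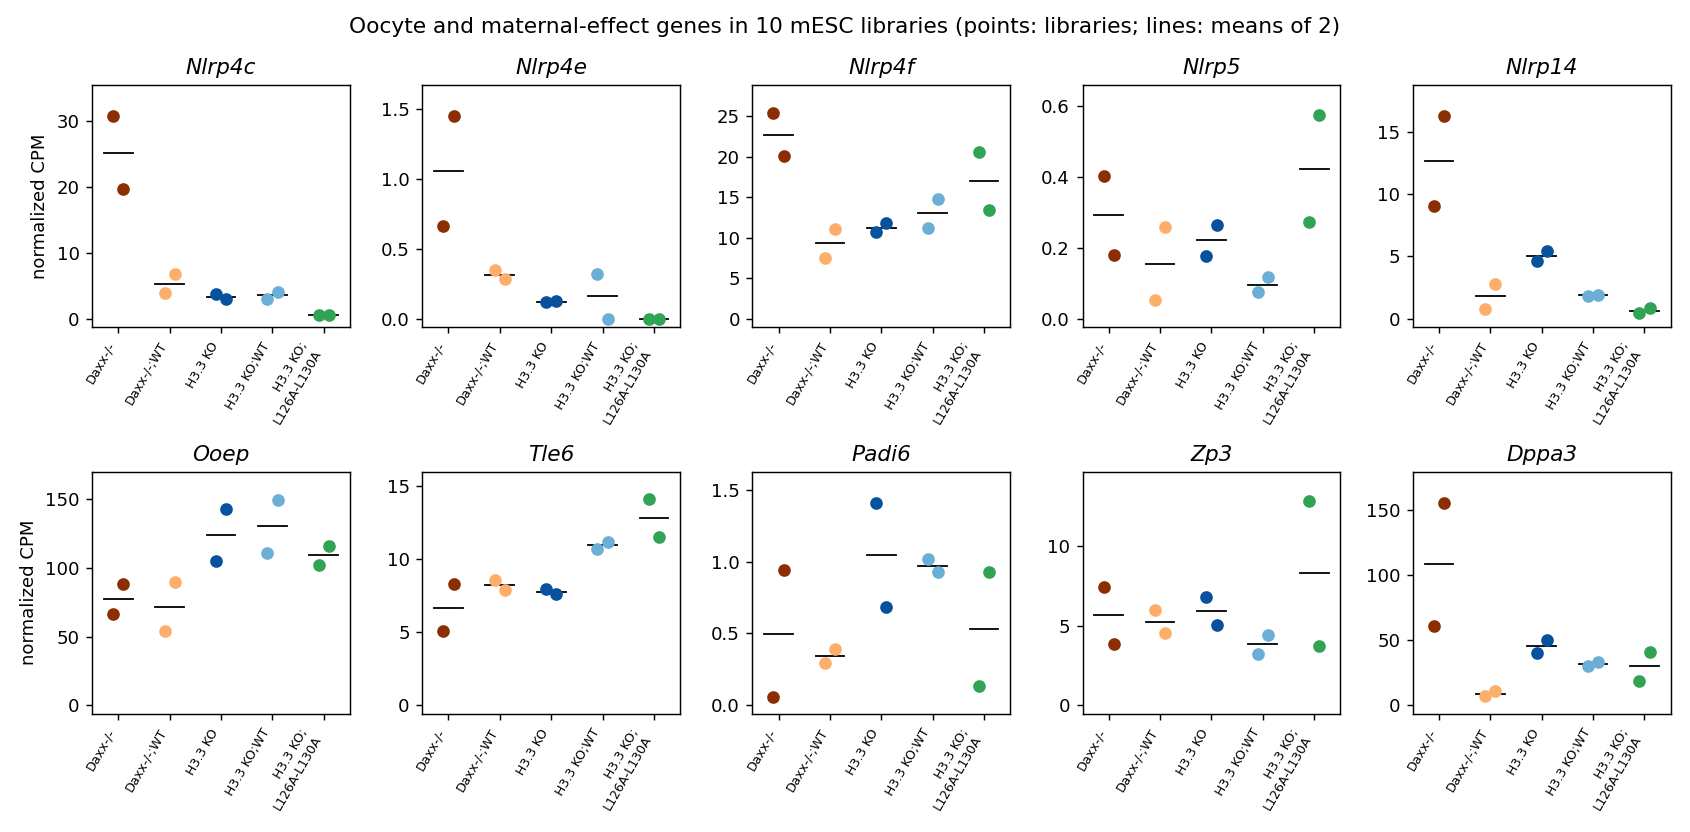
Normalized CPM (y axis, linear, a different scale in each panel) of each of the 10 genes in the 5 mESC lines (x axis). Points are libraries and black lines are means of 2; Daxx-/- cells stand highest for Nlrp4c, Nlrp14 and Dppa3, whereas Ooep reaches 53.8 CPM or more in every library.

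The first comparison asked what changed when DAXX was returned to Daxx-/- cells. Dppa3 and Nlrp4c fell, by 12.1-fold and 4.76-fold in mean CPM, and no tested member rose. Nlrp14 and Nlrp4f also had lower values in both rescued libraries than in either Daxx-/- library but did not pass the adjusted threshold, and Ooep, Tle6, Padi6 and Zp3 overlapped between the lines. Differentially expressed (DE) genes had to change at least 2-fold and to have a p below 0.05 after Benjamini-Hochberg adjustment over all 13201 genes in edgeR's quasi-likelihood test. Thus 2 of 8 tested members were DE, beside 1.08% of all tested genes. Groups did not overlap, with the rescued line lower, for 4 of 8 members and for 24.7% of all genes, and with the rescued line higher for 0 members and 21.7% of all genes. The members' median log2 fold change was -0.91, and that of all tested genes was -0.02.

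Dppa3 had 61.1 and 155 CPM in the Daxx-/- replicates and 6.78 and 11.2 CPM after rescue. The Daxx-/- replicates were themselves 2.54-fold apart, but the lower of them was well above both rescued libraries. The log2 fold change was -3.60 ± 0.52 (SE, n = 2 per line; adjusted p = 0.0244, edgeR). Without Daxx-/- replicate 1 it was -4.12 and without replicate 2 it was -2.78, both DE, whereas leaving out either rescued library raised the adjusted p to 0.256 or 0.0813. The fit of these 4 libraries alone gave an adjusted p of 0.131. Of the transcript's 50-base windows, 17.7% also occur in the pseudogene Dppa3-ps, so some reads could be shared with it.

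None of the 4 genes beside Dppa3 that were examined (Nanog, Gdf3, Apobec1 and Slc2a3) was DE in any of the 4 comparisons by edgeR or DESeq2, with 1, 0, 1 and 2 of them at an unadjusted p under 0.05. Their median log2 fold change with DAXX was 0.0028.

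Nlrp4c had 30.8 and 19.7 CPM in Daxx-/- cells and 3.81 and 6.79 CPM with DAXX, from 555 and 355 expected counts before and 77.0 and 121 after. Rescued libraries were thus below both controls, at a log2 fold change of -2.25 ± 0.37 (SE, n = 2 per line; adjusted p = 0.0292, edgeR). Leaving out either Daxx-/-;WT library raised the adjusted p to 0.293 or 0.0799, and the fit of the 4 libraries alone gave 0.173. Its neighbour in sequence, Nlrp4e, had 11.9 and 26.1 expected counts in Daxx-/- cells and 6.98 and 5 with DAXX. Both rescued libraries were lower here too, and mean CPM was 3.36-fold lower, but with so few counts no change was detectable (log2 fold change -1.71 ± 0.93, adjusted p = 0.370, edgeR with no filter on low counts).

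Nlrp14 had 9.03 and 16.2 CPM in Daxx-/- cells and 0.743 and 2.81 CPM with DAXX. Both rescued libraries were lower than both controls, although they rest on 15 and 50 counts and differ 3.78-fold from each other. The log2 fold change was -2.84 ± 0.60 (n = 2 per line), with an unadjusted p of 0.0011 in edgeR and an adjusted p of 0.0570, so the gene was not DE. It was DE with DESeq2 (adjusted p = 3.77e-04) and with no filter in edgeR (0.0332). It was not DE in edgeR with TMM factors (adjusted p = 0.0585), library totals alone (0.0664) or the 4 libraries alone (0.242). With 1 library left out, the log2 fold change was between -4.08 and -2.17. The fit with a replicate block is given at the end.

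Nlrp4f had 25.3 and 20.1 CPM in Daxx-/- cells and 7.43 and 11.1 CPM with DAXX. The lines did not overlap, and the log2 fold change was -1.29 ± 0.30 (adjusted p = 0.0671, edgeR, n = 2 per line; DESeq2 0.0031). Nlrp5, the maternal complex gene next to Nlrp4e, had 7.27 and 3.25 expected counts in Daxx-/- cells and 1.05 and 4.61 with DAXX, too few to compare. No tested member besides Dppa3, Nlrp4c, Nlrp14 and Nlrp4f had an unadjusted p under 0.05.

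The remaining genes give the contrast. Ooep had 66.3 and 87.9 CPM in Daxx-/- cells and 53.8 and 89.7 CPM with DAXX, a log2 fold change of -0.10 ± 0.27. Tle6 had 5.10 and 8.27 CPM and then 8.58 and 7.91 CPM (0.30 ± 0.28). Zp3 had 7.43 and 3.88 CPM and then 5.99 and 4.53 CPM (-0.10 ± 0.55). For all 3, the values with and without DAXX overlapped. Padi6 was at 1 and 17 expected counts without DAXX and 6 and 7 with it, too few for a change to be detectable (-0.53 ± 1.11). Markers of feeder fibroblasts summed to 29.0 to 44.7 CPM in Daxx-/- cells and 13.9 to 19.2 CPM with DAXX. None was at 0 in both libraries of either line. Of 6 markers 3 were tested, of which 0 were DE by edgeR, 2 had an unadjusted p under 0.05 and 1 was DE with DESeq2. Most of the sum lay on Thy1, at 23.5 and 36.0 CPM without and 11.6 and 16.1 CPM with DAXX. Col1a1 had 3.82 and 4.44 CPM and then 0.495 and 0.954 CPM, while Pdgfra overlapped. Col1a2, Col3a1 and Postn were under 1 CPM in every library. These genes were named after their values were seen. Markers of primitive endoderm summed to 6.65 to 19.02 CPM and 4.16 to 6.34 CPM in the same lines, with 4 of 6 tested, 0 DE by either tool and 2 at an unadjusted p under 0.05. Their part in the changes of the members was not tested.

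**Figure D2:**
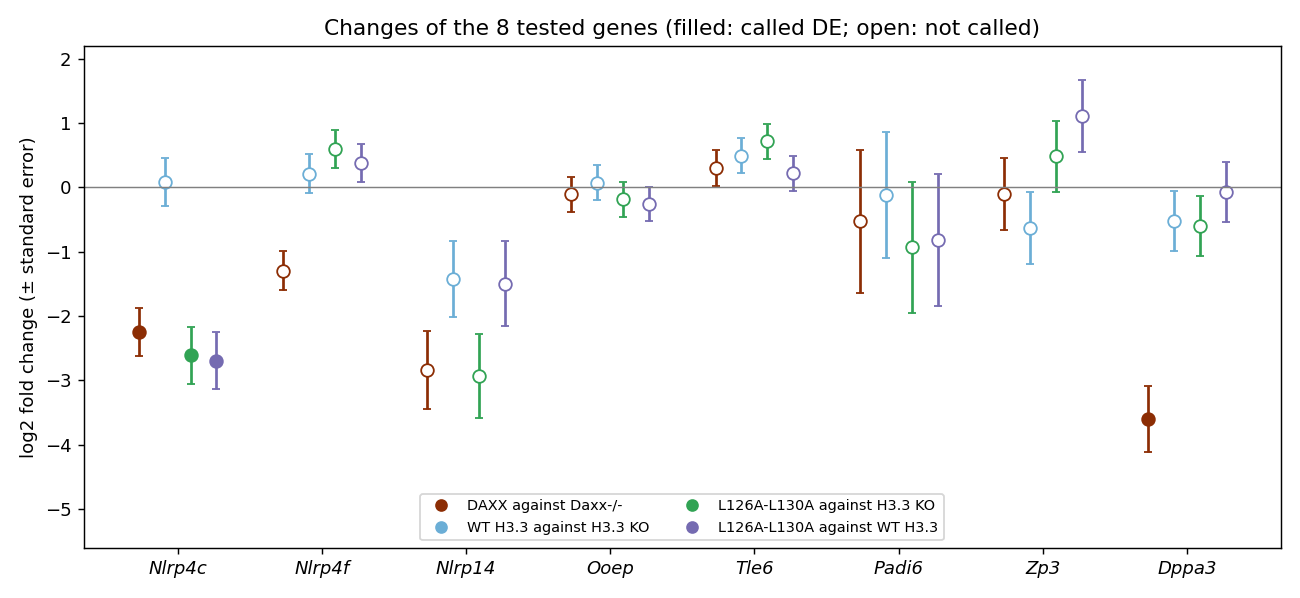
Log2 fold changes (y axis) of the 8 tested genes (x axis) in 4 comparisons, told apart by colour, with standard errors as bars (n = 2 libraries per line). Filled points are DE: Nlrp4c in all comparisons but WT H3.3 against H3.3 KO, and Dppa3 with DAXX, at -3.60.

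The second comparison returned WT H3.3 to H3.3 KO cells. None of the 8 tested members was DE by edgeR, while 0.25% of all tested genes were. One member, Nlrp14, had an unadjusted p under 0.05, and DESeq2 also called 0 members. The rescued line was lower without overlap for 3 of 8 members (Nlrp14, Zp3 and Dppa3) and for 26.8% of all genes, and it was higher without overlap for 1 member, Tle6, and for 29.3% of all genes. Their median log2 fold change was -0.02, beside 0.02 for all genes.

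Nlrp14 had 4.59 and 5.40 CPM in H3.3 KO cells and 1.84 and 1.86 CPM with WT H3.3. The replicates of each line were close and the lines did not overlap, at a log2 fold change of -1.43 ± 0.59 (n = 2 per line; unadjusted p = 0.0388, adjusted p = 0.342, edgeR). In the fit of these 4 libraries alone it was DE (adjusted p = 0.0438). Dppa3 had 40.5 and 50.1 CPM and then 29.8 and 33.2 CPM, a log2 fold change of -0.52 ± 0.47 (adjusted p = 0.685). Nlrp4c had 3.68 and 2.98 CPM and then 2.98 and 4.06 CPM, with overlapping lines (0.08 ± 0.38). Nlrp4f had 10.6 and 11.8 CPM and then 11.2 and 14.8 CPM, with overlap. Zp3 had 6.79 and 5.03 CPM and then 3.24 and 4.41 CPM (-0.63, adjusted p = 0.689), and Tle6 had 7.93 and 7.63 CPM and then 10.7 and 11.2 CPM (0.49, adjusted p = 0.498). Zp3 and Tle6 thus did not overlap but differed by less than 2-fold.

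Because the DAXX and the WT H3.3 comparisons share no library, the difference between their changes was tested as a contrast, which was added after the data were seen. For Dppa3 the log2 fold change with DAXX minus that with WT H3.3 was -3.07 ± 0.68 (unadjusted p = 0.00138, adjusted p = 0.165, edgeR, n = 2 per line). For Nlrp4c it was -2.33 ± 0.52 (adjusted p = 0.165) and for Nlrp4f -1.51 (adjusted p = 0.222). None passed the threshold, although 3 members had an unadjusted p under 0.05 and 6 of all genes passed. With DESeq2, Dppa3 (adjusted p = 4.76e-04), Nlrp4c (0.0105) and Nlrp4f (0.0453) did. The lines also differ in strain and in the gene removed, which cannot be told apart from the transgene in this contrast.

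The third comparison gave H3.3 KO cells the mutant H3.3. Nlrp4c fell, and it was the only 1 of 8 tested members that was DE by edgeR, beside 0.788% of all tested genes. In all, 3 members had an unadjusted p under 0.05 (Nlrp4c, Nlrp14 and Tle6). Mutant libraries were lower without overlap for 2 members, Nlrp4c and Nlrp14, and for 24.2% of all genes. They were higher without overlap for 2 members, Nlrp4f and Tle6, and for 25.8% of all genes. The members' median log2 fold change was -0.39, and that of all genes was 0.03.

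Nlrp4c had 64.97 and 48 expected counts in H3.3 KO cells and 7 and 11 with the mutant, which are 3.68 and 2.98 CPM against 0.472 and 0.602 CPM. Both mutant libraries stood far below both controls, 6.20-fold lower in mean CPM. The log2 fold change was -2.61 ± 0.44 (n = 2 per line; adjusted p = 0.0363, edgeR). Leaving out any 1 of the 4 libraries kept the value between -2.80 and -2.45 but raised the adjusted p to between 0.0791 and 0.255, and the 4 libraries alone gave 0.0869.

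Nlrp14 had 4.59 and 5.40 CPM in the controls and 0.404 and 0.875 CPM with the mutant, on 6 and 16 counts. The lines did not overlap, and the log2 fold change of -2.93 ± 0.65 did not pass (unadjusted p = 0.00147, adjusted p = 0.0706, edgeR, n = 2 per line). With DESeq2 it did (adjusted p = 0.00101), and with no filter in edgeR as well (0.0418). It did not in edgeR with TMM factors (adjusted p = 0.0706), library totals alone (0.0787) or the 4 libraries alone (0.0755). With 1 library left out, the log2 fold change was between -3.60 and -2.50. Dppa3 had 18.5 and 41.0 CPM with the mutant, a range that reaches into that of the controls (-0.60 ± 0.46, adjusted p = 0.565).

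Tle6 and Nlrp4f went the other way in value. Tle6, a transcriptional co-repressor relative found in the maternal complex, had 7.93 and 7.63 CPM in H3.3 KO cells and 14.1 and 11.5 CPM with the mutant (0.72 ± 0.28, unadjusted p = 0.0291, adjusted p = 0.234, edgeR, n = 2 per line). Nlrp4f had 10.6 and 11.8 CPM and then 20.6 and 13.4 CPM (0.60, adjusted p = 0.352). Neither was DE, and neither was DE under any other setting tried for this comparison. Nlrp4f thus had lower values with DAXX and higher values with the mutant, and the difference between these changes was -1.89 ± 0.42 (unadjusted p = 0.00148, adjusted p = 0.233, edgeR; DESeq2 0.00797). In this contrast, also added after the data were seen, 2 members had an unadjusted p under 0.05, 0 passed in edgeR and 3 of all genes passed. For Nlrp4c the changes with DAXX and with the mutant differed by 0.36 (adjusted p = 0.851).

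The mutant was also set against WT H3.3 in the same KO background, which compares the transgenes. Nlrp4c was DE and lower, at 0.472 and 0.602 CPM against 2.98 and 4.06 CPM, 6.57-fold in mean CPM (log2 fold change -2.69 ± 0.44, adjusted p = 0.0441, edgeR, n = 2 per line). It was the only member called, while 0.515% of all tested genes were. The value kept to between -2.89 and -2.45 when 1 library was left out, with adjusted p between 0.0971 and 0.367, and library totals in place of size factors gave 0.0609. Nlrp14 was lower without overlap as well (-1.50 ± 0.66, unadjusted p = 0.0486, adjusted p = 0.400), as were 2 members in all and 23.2% of all genes, while 1 member, Tle6, and 22.0% of all genes were higher without overlap. This comparison and that with H3.3 KO share the mutant libraries, and those with H3.3 KO share its libraries, so their values are not independent. The members' median log2 fold change was -0.17, beside 0.0026 for all genes.

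Zp3 had its widest spread in the mutant line, 12.9 and 3.72 CPM, which overlaps the 3.24 and 4.41 CPM with WT H3.3 (1.11, adjusted p = 0.487). Ooep had 105 and 143 CPM in H3.3 KO cells, 111 and 150 CPM with WT H3.3 and 102 and 116 CPM with the mutant, with overlap throughout. Padi6 had between 2 and 24.9 expected counts in the H3.3 lines and Nlrp5 between 1.18 and 10.5, so that changes in them were not detectable at this depth. Nlrp4e was at 2.03 and 2 counts in H3.3 KO cells, 5 and 0 with WT H3.3 and 0 and 0 with the mutant, at or under a floor of 3 counts in 5 of these 6 libraries.

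Some markers of other cell states had lower values in the mutant libraries. The 13 markers of two-cell-like cells in the table, genes such as Zscan4c that are read in a minor fraction of mESCs, summed to 158 to 216 CPM in H3.3 KO cells, 153 to 225 CPM with WT H3.3 and 3.99 to 41.6 CPM with the mutant. None of them was at 0 in both libraries of an H3.3 line, and 1 of 11 tested was DE: Usp17la, a deubiquitinase gene listed as Dub1, with log2 fold changes of -2.58 against H3.3 KO and -2.87 against WT H3.3. Of the 11, 7 and 8 had an unadjusted p under 0.05 in these comparisons, DESeq2 called 2 in each, and their median log2 fold changes were -3.13 and -3.08. In the Daxx lines the same sum was 23.0 to 63.6 CPM without and 11.4 to 78.3 CPM with DAXX. The 7 markers of primordial germ cells summed to 226 to 392 CPM in H3.3 KO cells, 239 to 283 CPM with WT H3.3 and 144 to 194 CPM with the mutant, with none at 0 in both libraries of a line. Of these, Dazl, an RNA-binding protein gene of germ cells, was DE at -3.92 (adjusted p = 0.0325, edgeR), from 95.2 and 245 CPM to 6.00 and 16.2 CPM. Without Dazl the other 6 markers summed to 131 to 147 CPM in H3.3 KO cells, 202 to 205 CPM with WT H3.3 and 138 to 178 CPM with the mutant, so the lower sum lay on Dazl. The part of these markers in the fall of Nlrp4c was not tested. Leaving out 1 library ended the Usp17la call in 3 of 4 cases and the Dazl call in 2 of 4.

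The Nlrp4 genes resemble each other, and RSEM divides reads that fit several of them. Of the 50-base windows of the Nlrp4c transcript, 7.74% occur in Nlrp4e and 3.87% in Nlrp4a, and none in Nlrp4f. Of those of Nlrp4e, 25.6% occur in Nlrp4c, and 36.9% in some other gene. Nlrp4c and Nlrp4e added together had 21.1 to 31.4 CPM in Daxx-/- cells, 4.16 to 7.07 CPM with DAXX, 3.10 to 3.79 CPM in H3.3 KO cells, a mean of 3.68 CPM with WT H3.3 and 0.472 to 0.602 CPM with the mutant. The order of the lines and the gap between controls and the DAXX or mutant libraries were thus as for Nlrp4c alone.

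The 5 Nlrp4 genes of the table together had 64.0 and 43.4 CPM in Daxx-/- cells and 12.7 and 19.6 CPM with DAXX, and this sum fell in the edgeR fit (-1.73 ± 0.28, adjusted p = 0.0270, n = 2 per line). Nlrp4c made up 48.1% and 45.3% of it without DAXX and 29.97% and 34.7% with DAXX. In the H3.3 lines the sum stayed within 19.1 to 30.3 CPM, while the share of Nlrp4c was 13.6% and 10.9% in H3.3 KO cells, 15.6% and 15.8% with WT H3.3 and 1.55% and 2.58% with the mutant. The sum differed by -0.02 between mutant and H3.3 KO (adjusted p = 0.982) and by 0.25 between mutant and WT H3.3 (adjusted p = 0.811). With the mutant, then, a DE fall of Nlrp4c stood within a family total that was not DE. Most of that total lay on Nlrp4f, at 67.7% and 57.5%, and on Nlrp4a, at 30.5% and 39.7%.

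**Figure D3:**
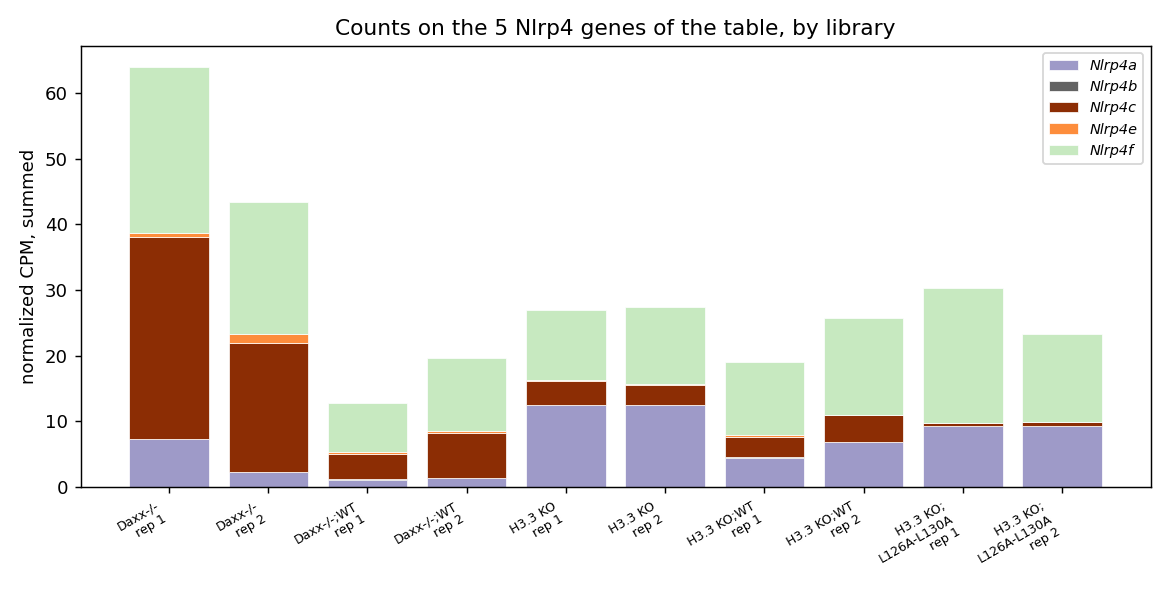
Summed normalized CPM (y axis) of the 5 Nlrp4 genes in each of the 10 libraries (x axis), with the genes stacked by colour. Nlrp4c takes 48.1% and 45.3% of the Daxx-/- bars and 1.55% and 2.58% of the mutant bars, whose totals are close to those of the other H3.3 lines.

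Ordered by line mean, Nlrp4c was highest in Daxx-/- (25.2 ± 7.83 CPM, SD, n = 2), followed by Daxx-/-;WT (5.30 ± 2.10), H3.3 KO;WT (3.52), H3.3 KO (3.33) and the mutant (0.537). The middle 3 overlapped with their neighbours, and the first and the last did not. For Nlrp14 the order was Daxx-/- (12.6), H3.3 KO (4.99), H3.3 KO;WT (1.85), Daxx-/-;WT (1.77) and the mutant (0.640), where each of the last 3 overlapped its neighbour. For Dppa3 it was Daxx-/- (108), H3.3 KO (45.3), H3.3 KO;WT (31.5), the mutant (29.8) and Daxx-/-;WT (8.97), where only H3.3 KO;WT and the mutant overlapped as neighbours. So Dppa3 was lowest in the line rescued with DAXX and both NLRP genes in the mutant line.

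The tested genes whose log2(CPM + 1) values over the 10 libraries ran most like those of Nlrp4c were Stk31 (Pearson r = 0.982), Rps6ka3 (0.977) and Gm5128 (0.974). Those most like Nlrp14 were Pls1 (0.969), Heph (0.967) and Wdr95 (0.966), and those most like Dppa3 were Slc25a33 (0.982), Txndc5 (0.948) and Tmem38b (0.940). Stk31 is itself a germ cell kinase gene. Each was picked as the highest among all tested genes, over libraries that share lines and strain, so these values describe likeness only. For Ooep the closest was Garnl3 (0.984) and for Tle6 Zfp691 (0.947).

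Other genes of the same biology were mostly too low to test. Of 8 other oocyte NLRP genes, 6 are in the table and 2 were tested, with none DE by edgeR in any comparison. At an unadjusted p under 0.05 there were 2, 2, 0 and 1 in the 4 comparisons, and DESeq2 called 2, 0, 0 and 1. These genes, Nlrp4a and Nlrp9b, were named after their values were seen. Nlrp4a had 7.26 and 2.22 CPM in Daxx-/- cells and 1.09 and 1.40 CPM with DAXX (adjusted p = 0.0922, edgeR). Nlrp9b had 6.15 and 1.77 CPM and then 0.446 and 1.07 CPM (adjusted p = 0.112). Both were lower without overlap, like Nlrp4c, Nlrp4f and Nlrp14. With the mutant against H3.3 KO, however, Nlrp9b was at 10.04 and 5.03 CPM against 6.96 and 3.54 CPM (adjusted p = 0.729).

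Of 6 other maternal complex and KH-family genes, 3 were tested and 1 was DE. Khdc3 (Filia), listed as 2410004A20Rik, a partner of Nlrp5 and Ooep in the subcortical maternal complex, rose with DAXX from 28.2 and 23.4 CPM to 45.7 and 61.5 CPM (log2 fold change 1.06 ± 0.20, adjusted p = 0.0481, edgeR, n = 2 per line). Its lines did not overlap, but the call was lost in 5 of 10 other settings, 3 of them with 1 library left out, where adjusted p reached 0.225. Its complex partners Ooep and Tle6 were not DE in the same comparison. Of 29 other oocyte genes, 25 were under 1 CPM in every library and 2 were tested, with none DE by edgeR, 1 at an unadjusted p under 0.05 in each comparison but the last and 1 called by DESeq2 in the same 3. The tested pair, Sohlh2 and Oas1d, was named after its values were seen. Sohlh2, which encodes a transcription factor of early oocytes and spermatogonia, had 90.1 and 154 CPM in Daxx-/- cells and 31.8 and 46.7 CPM with DAXX (-1.64 ± 0.44, adjusted p = 0.0905, edgeR, n = 2 per line). It had 138 and 162 CPM in H3.3 KO cells, 35.2 and 53.9 CPM with WT H3.3 and 25.2 and 66.8 CPM with the mutant. Both libraries of every rescued line were thus below both of its KO line, although none of these changes passed (adjusted p = 0.173 for WT H3.3 and 0.105 for the mutant, edgeR). Oas1d had at most 1.53 CPM. All 11 genes listed as sharing a family or only a name stem with a member, and expressed outside the oocyte, were tested. None was DE by edgeR in any comparison, while at most 1 had an unadjusted p under 0.05 and 1 was called by DESeq2, with DAXX. Their median log2 fold change was -0.10 for DAXX and 0.09 for the mutant.

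**Figure D4:**
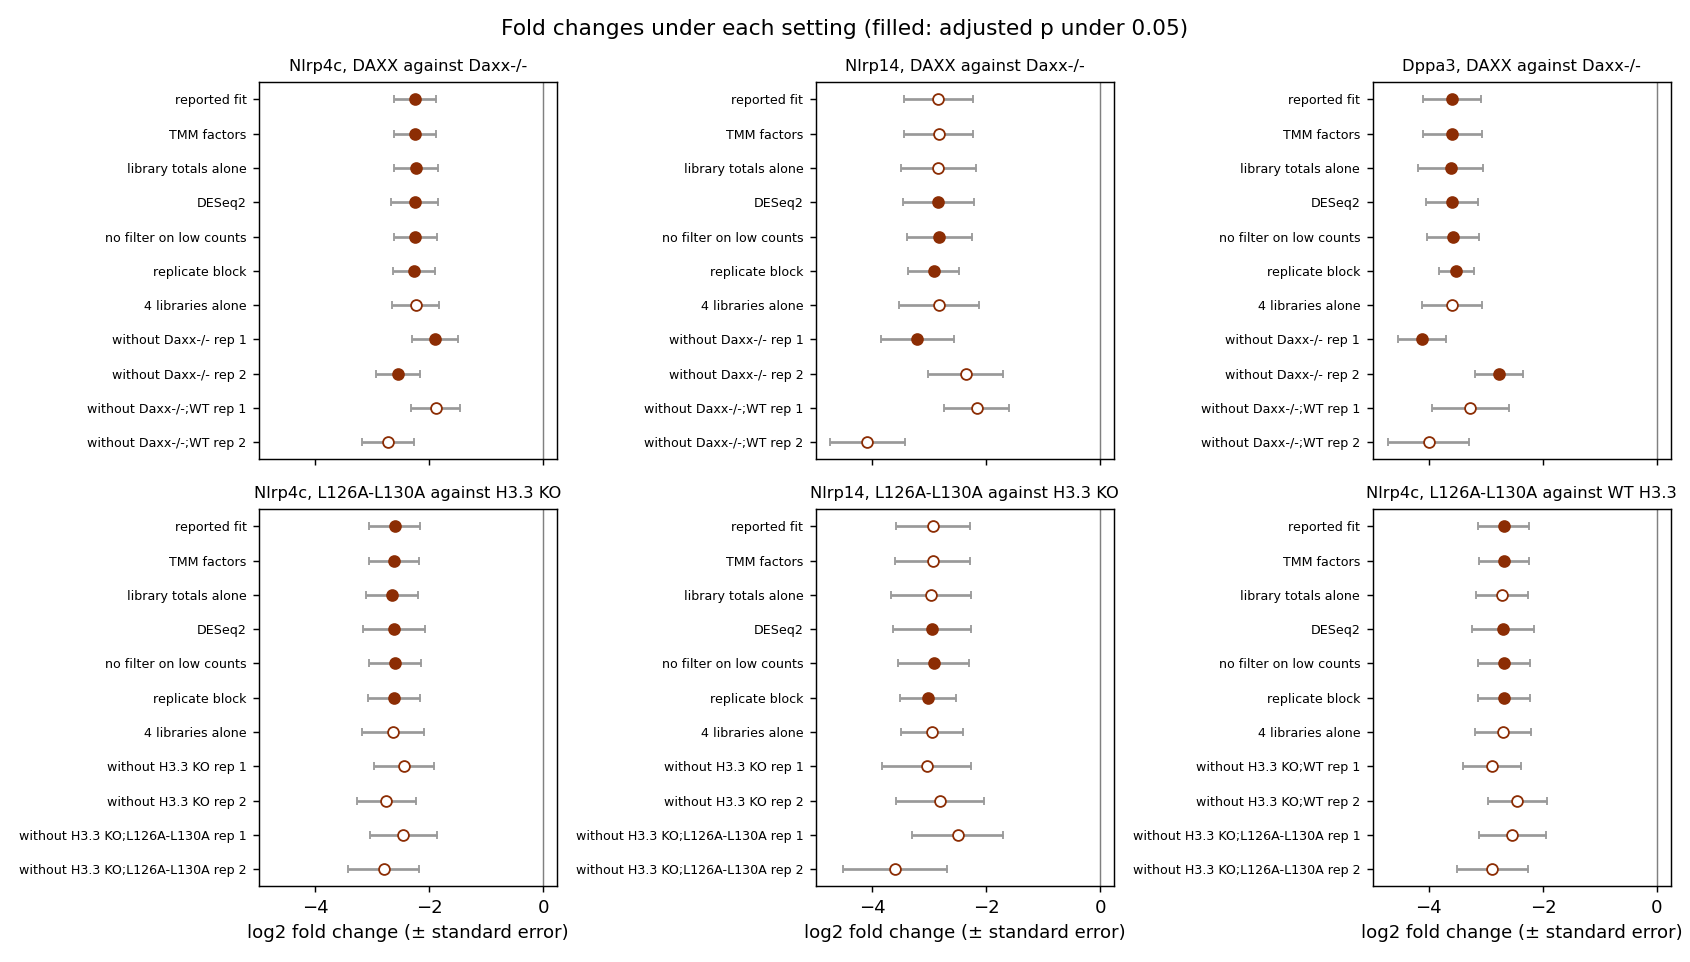
Log2 fold changes with standard errors (x axis) under each setting (y axis) for Nlrp4c, Nlrp14 and Dppa3, filled where the adjusted p was under 0.05. In the 6 panels, which show Nlrp4c, Nlrp14 and Dppa3 with DAXX, Nlrp4c and Nlrp14 with the mutant against H3.3 KO and Nlrp4c with the mutant against WT H3.3, all values lie below 0, and the calls of Nlrp4c with the mutant are lost whenever 1 of its libraries is left out.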

How the data were processed

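PolyA RNA was measured in 5 mESC lines with 2 libraries each, grouped by the genotype in their labels. The authors aligned the reads with Bowtie and estimated expression with RSEM, and the submitters' processing notes name the build mm9. Tool versions and annotation are not given in the sources used here. Per gene, the deposited table holds expected counts, which are named TPM but are not normalized. RSEM splits reads shared by paralogs, so a gene's estimate depends on its relatives.

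Rounded expected counts were fitted with edgeR (version 4.0.16, R version 4.3.3) in 1 quasi-likelihood model of all 10 libraries, with median-of-ratios factors and genes of at least 1 CPM in at least 2 libraries (13201 genes). Of 20325 genes, those at an adjusted p under 0.05 and at least 2-fold were DE. CPM are expected counts scaled by effective library size, except in the filter at 1 CPM, which used library totals. A standard error is the fold change divided by the square root of F. DESeq2 and the other settings were alternatives. The fit was also run on simulated data, in which all genes had the same spread beyond counting noise and libraries were independent. That run therefore does not test the fit under the replicate differences seen here. The floor of 3 counts per library covers counting error only.

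The 10 genes and all lists were chosen with earlier results of these data known. Beyond the members, genes were named if DE in at least 1 comparison, or among the 3 most correlated with a member. Genes that the report says were named after their values were seen fall outside this rule. So do the genes of the targeted loci, the genes beside Dppa3, its pseudogene, Oosp1 and Zscan4c. Promoters are from RefSeq, positions from GENCODE.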

Additional observations from a re-analysis of the deposited data

How the results depend on the processing

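Counts of DE genes are given in the order DAXX, WT H3.3, mutant against H3.3 KO, and mutant against WT H3.3. The fit reported gave 143, 33, 104 and 68 genes and 2, 0, 1 and 1 members. DESeq2 gave 531, 209, 444 and 323 genes and 4, 0, 2 and 1 members, and no filter on low counts gave 233, 53, 203 and 125 genes and 3, 0, 2 and 1 members. The 4 libraries of a comparison alone gave 1, 330, 29 and 18 genes and 0, 1, 0 and 0 members. TMM factors gave 145, 35, 104 and 65 genes with the same counts of members, and library totals alone gave 123, 24, 99 and 39 genes and 2, 0, 1 and 0 members. In the last of these, 23 genes were higher and 16 lower, against 33 and 35 in the fit reported.

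With 1 library left out, DE genes were between 1 and 1074 for DAXX, 2 and 3 for WT H3.3, 2 and 142 for the mutant against H3.3 KO, and 0 and 64 for the last comparison. Members DE were between 0 and 3 for DAXX and 0 in every such fit of the other comparisons. For DAXX, 1074 came without Daxx-/- replicate 1, 48 without Daxx-/- replicate 2 and 1 without either rescued library. A line left with 1 library was assumed to vary like the others. The cause of these shifts was not tested.

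Samples share only replicate numbers: same-numbered libraries of 10 pairs of lines had correlated deviations from -0.0441 to 0.574, over 0.1 in 7. A replicate block gave 621, 105, 461 and 234 genes and 4, 0, 2 and 1 members. It added Nlrp4f (adjusted p = 0.0309) and Nlrp14 (0.00968) for DAXX, and Nlrp14 (0.0163) for the mutant against H3.3 KO.

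With the 5 Nlrp4 genes summed, the value in place of Nlrp4c was 0.25 for the mutant against WT H3.3, the opposite sign, because the sum also holds Nlrp4a and Nlrp4f. Every other member's fold change that was DE in any setting kept its sign. Depth limits Nlrp4e, Nlrp5 and Padi6.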
